A study of Mus musculus with 12 samples.

Results

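The immediate early and AP-1 genes were followed in the RNA of mouse skin wounds, 10 in all: the AP-1 subunit genes Fos, Fosb, Fosl1, Fosl2, Jun, Junb and Jund, and the stress and growth response genes Egr1, Atf3 and Ier3. They were found by their symbol in the deposited tables, where each of the 10 has 1 row among 55487 genes. The wounds were 6 mm full-thickness punches, 2 per animal, in the back skin of 6-week-old male C57BL/6JNarl mice, and the sequenced tissue was the wound with its surroundings. Sham wounds (labelled P-F127) received 200 µL of 25% Pluronic F127 gel once daily, and CAP-treated wounds received the same gel with 10 µM capsaicin (CAP), the pungent agonist of the heat-gated channel TRPV1. All 4 groups therefore carried the gel, and no unwounded or untreated skin was analysed here. Wounds were taken on day 3 and on day 6, with 3 libraries per group and 12 in all. No source used here says whether libraries share a mouse. The p values below measure the spread between libraries, which may be partly technical, and treat the libraries as independent. If some libraries came from the same mouse, fewer animals stand behind these p values, and they may be too small.

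Immediate early genes are transcribed within minutes of a growth factor, cytokine, stress or injury signal, without new protein synthesis, and their transcripts are short-lived. Fos and Jun family proteins pair through leucine zippers to form AP-1, which binds TGA-type sites in genes of matrix breakdown, cell migration and epidermal differentiation. In skin, a cut induces these genes at the wound edge, and AP-1 activity continues in migrating keratinocytes, fibroblasts and infiltrating leukocytes.

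Expression was given by the authors as TPM, in which read numbers are divided by transcript length and scaled to the same sum in every library, so levels can be set side by side between genes. The number of reads behind a value is unknown. Differences below are on the scale log2(TPM + 0.1), and a gene was said to rise or fall at an unadjusted limma p under 0.05 together with a difference of at least 2-fold, the threshold of the study's methods. Benjamini-Hochberg adjusted p values over all genes tested are given beside it. The libraries held the markers of skin: keratinocyte markers summed to between 31490 and 98150 TPM and fibroblast markers to between 10470 and 26360 TPM, and none of the listed markers of the 9 cell types was at 0 throughout a group. CAP-treated replicate 2 at day 6 stood apart, with 14.1% of its TPM in its 10 most abundant genes against 8.27% to 11.3% in the other 11 libraries. In such bulk tissue, fewer cells of a type and less RNA per cell cannot be told apart.

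All 10 members are protein-coding. They lie on 9 chromosomes of GRCm38, with Junb (8:84976910-84978718, minus strand) and Jund (8:70698949-70700616, plus strand) on the same one. Fos spans 12:85473890-85477273 on the plus strand, Fosb 7:19302696-19310051 on the minus strand and Ier3 17:35821684-35822923 on the plus strand. Fosl1 spans 19:5447547-5455946 and Fosl2 5:32135801-32157842 on the plus strand, and Jun 4:95049034-95052222 and Atf3 1:191170296-191218039 lie on the minus strand. Overlapping genes on the other strand are annotated for Fosl1 (Ccdc85b), Jun (Junos), Jund (Gm11175) and Atf3 (Gm24748). The median TPM over the 12 libraries was 9.88 for Ccdc85b, 15.8 for Junos and 6.22 for Gm11175, and Gm24748 was listed at 0 in all of them. Whether counting used strand was not stated in the labels or methods, so reads of these pairs may be shared.

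The 250 bases before the start site of 3 members are shown because the day comparisons and the CAP comparison turn on them. They were taken from RefSeq (GRCm38.p6), from which windows of 8 of the 10 members were used, all but Fosl1 and Egr1. The starts of Fosb and Ier3 in the deposited gene models lie slightly upstream of those of RefSeq, so their windows end within the models. Capitals mark TGACG (the core of the cAMP response element, on either strand), CCAAT (either strand), GGGCGG (the GC box, either strand) and TATAAA (gene strand only).
Fos, chr12:85473640-85473889, plus strand: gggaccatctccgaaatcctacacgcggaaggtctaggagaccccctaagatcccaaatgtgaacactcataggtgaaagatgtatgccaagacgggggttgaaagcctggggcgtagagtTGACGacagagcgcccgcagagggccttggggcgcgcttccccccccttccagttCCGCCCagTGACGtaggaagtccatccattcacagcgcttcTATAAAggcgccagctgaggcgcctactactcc
Fosb, chr7:19310046-19310295, minus strand: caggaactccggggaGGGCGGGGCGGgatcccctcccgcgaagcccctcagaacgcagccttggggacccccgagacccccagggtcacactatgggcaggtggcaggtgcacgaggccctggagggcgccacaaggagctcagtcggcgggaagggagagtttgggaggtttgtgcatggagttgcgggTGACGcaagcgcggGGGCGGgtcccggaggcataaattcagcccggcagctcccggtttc
Ier3, chr17:35821463-35821712, plus strand: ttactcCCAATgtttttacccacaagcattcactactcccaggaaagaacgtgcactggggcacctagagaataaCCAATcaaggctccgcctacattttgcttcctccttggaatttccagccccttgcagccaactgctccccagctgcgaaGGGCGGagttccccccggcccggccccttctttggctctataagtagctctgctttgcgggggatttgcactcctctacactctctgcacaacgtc
Counting back from -1 at the base before the start, Fos held TGACG at -129 and at -66 and TATAAA at -33, and Fosb held TGACG at -60. Ier3 held CCAAT at -244 and at -175 but not the core element, which was also present in the windows of Junb and Atf3, so that 4 of the 8 members had TGACG, as did 17.8% of all 32851 windows of this length. CCAAT was in 33.8% of all windows, GGGCGG in 32.7% and TATAAA in 7.59%. The full element TGACGTCA, which contains TGACG, was in 1.55% of all windows, the AP-1 site TGANTCA in 6.75% and the CArG box, to which serum response factor binds, in 1.47%. None of these 3 was matched in the windows of the 8 members. Of the windows not shown, that of Jund (8:70697489-70697738) ended before its deposited gene model. Those of Fosl2 (5:32136222-32136471) and Atf3 (1:191183334-191183583) lay inside their models. Bases outside the windows, and Fosl1 and Egr1, were not searched. A match is a description of the letters, not of a site in use.

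Junb and Jund stood highest. Junb, whose protein restrains Jun in proliferating cells, ranged over the 12 libraries from 261 to 479 TPM, and Jund, the constitutive member of the family, from 267 to 478 TPM. The lowest of these values lay above the highest of Jun (120.1 to 214 TPM) and of Fos (51.4 to 214 TPM). Ier3, a stress-induced survival gene, ranged from 64.6 to 187 TPM, Egr1, a zinc finger factor induced by serum and injury, from 56.9 to 141 TPM, and Fosl2 from 63.7 to 111 TPM. Fosb (7.32 to 82.6 TPM), Fosl1 (17.2 to 63.1 TPM) and Atf3 (12.1 to 45.8 TPM) were lowest. Except between Jund and Jun, the ranges of neighbours in this order overlapped. The spread between libraries differed between members: the highest library exceeded the lowest 11.3-fold in Fosb and 4.16-fold in Fos, but 1.74-fold in Fosl2.

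**Figure D1:**
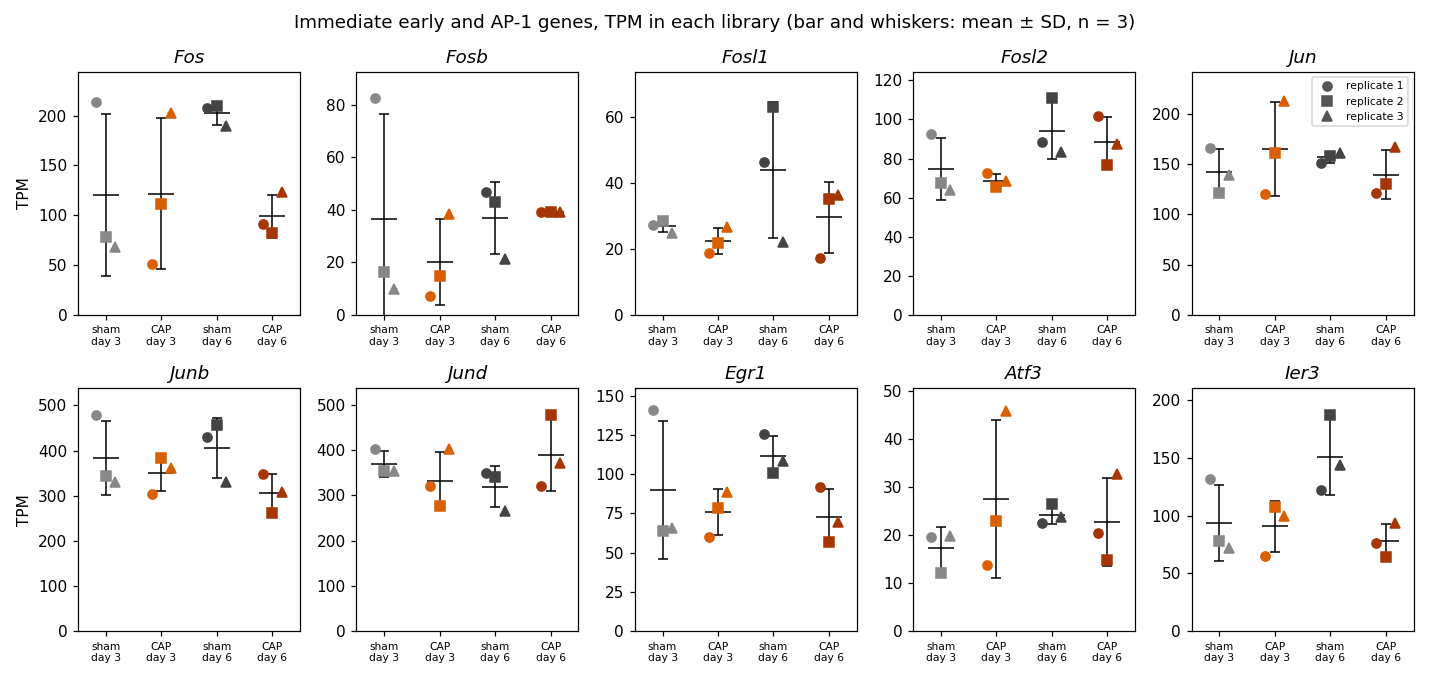
TPM of each member (y axes, from 0) in the 12 libraries by group (x axes); symbols are libraries, and the bar with whiskers is the mean ± SD (n = 3; the lower whisker of Fosb in sham wounds at day 3 is cut at 0). For Fos, the 3 CAP-treated libraries at day 6 (82.3 to 123 TPM) lie below the 3 sham libraries (189 to 209.8 TPM), while at day 3 the groups overlap.

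The first question was whether CAP changed the expression of these genes in the wound at day 3. It was not seen to: 0 of the 10 members passed the threshold by limma, where 1.58% of the 18330 genes tested did, and 0 members had an unadjusted p under 0.05, which 6.60% of all genes had. The groups overlapped in all 10 members, and did not overlap in 11.6% of all genes. Of all genes, 0.426% passed the threshold as higher and 1.16% as lower. The members' median log2 difference was -0.11, beside -0.05 over all genes tested. What stood out was the spread within each group. Fos was at 214, 77.8 and 68.3 TPM in the sham libraries and 51.4, 111 and 202 TPM with CAP. Each group thus held 1 library well above its other two, and the means were alike at 119.9 ± 81.4 and 122 ± 76 TPM (SD, n = 3). The log2 difference of Fos was 0.01 with a 95% interval from -1.41 to 1.42, which leaves room for a 2-fold change either way.

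Fosb repeated this picture. It was at 82.6, 16.4 and 9.92 TPM in the sham libraries and 7.32, 14.6 and 38.3 TPM with CAP, with a log2 difference of -0.57 (SE 0.88, limma unadjusted p = 0.542, adjusted p = 0.979). The same sham library, replicate 1, was the highest of its group for Fos, Fosb, Fosl2, Jun, Junb, Jund, Egr1 and Ier3. Egr1 was at 141 TPM there against 63.6 and 65.8 TPM in the other two, and Ier3 at 131 against 78.0 and 71.5 TPM. Among CAP-treated libraries, replicate 3 was the highest for Fos, Fosb, Fosl1, Jun, Jund, Egr1 and Atf3. Atf3, a stress-induced repressor of the ATF/CREB family, was at 13.8, 22.9 and 45.8 TPM there and at 19.6, 12.1 and 19.9 TPM in sham wounds. Its log2 difference was 0.53 (SE 0.43, limma unadjusted p = 0.255), and the groups overlapped.

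The sign for Fos moved with single libraries: its log2 difference at day 3 was 0.53 without sham replicate 1, 0.52 without CAP-treated replicate 1 and between -0.46 and -0.03 without any other 1, and 0 members passed the threshold in any of these fits. The other members at day 3 were close between groups: Fosl1 differed by -0.27 (95% interval -0.61 to 0.06), Fosl2 by -0.10, Junb by -0.12, Jund by -0.17 and Jun by 0.19 on the log2 scale. Heat shock genes, which encode chaperones, had 0 of 8 members past the threshold at day 3 and sums from 2003 to 2335 TPM in the 3 sham libraries. Erythroid markers, the globin genes and Alas2, rose in 5 of 5 cases with CAP at day 3 (summed level 514 to 753 TPM in sham and 2356 to 2803 TPM in CAP-treated wounds). Of the other lists, 1 of 8 neutrophil markers passed the threshold as higher and 1 of 6 T and NK cell markers as lower. All 8 fibroblast (median -0.48) and all 6 skeletal muscle markers (median -0.60) were lower, and all 5 adipocyte markers (median 0.10) were higher, with 0 past it. Of all genes, 62.2% were lower, 1.16% passed as lower and 0.426% as higher. The part of all these markers in the values of the members was not tested.

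**Figure D2:**
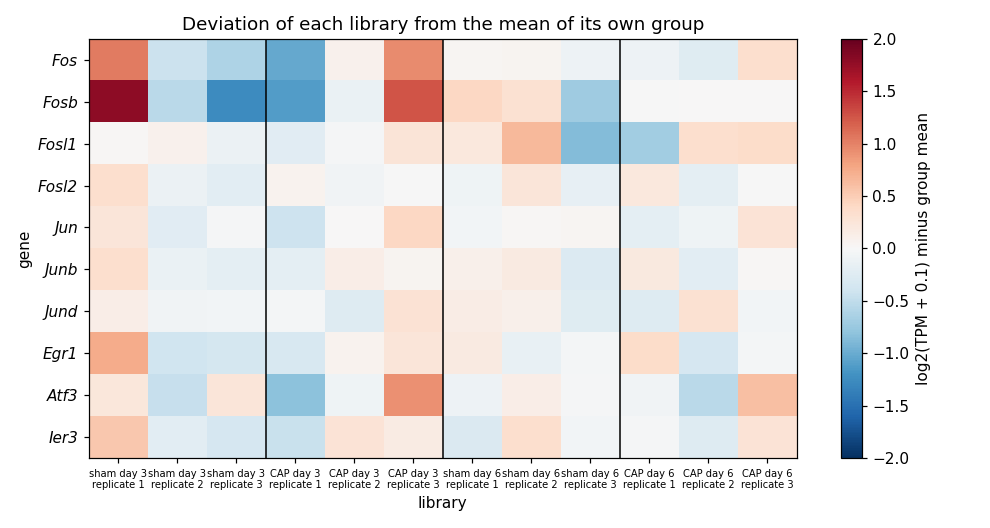
Deviation of each library (x axis) from the mean log2(TPM + 0.1) of its own group for each member (y axis), in colour from -2 to 2. Sham replicate 1 and CAP-treated replicate 3 at day 3 are the reddest columns, with Fos at 1.03 and 0.95 above their group means.

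The same comparison at day 6 asked whether CAP acts on these genes later in repair. Fos fell. The sham libraries held 208, 209.8 and 189 TPM and the libraries with CAP 91.2, 82.3 and 123 TPM, that is 202 ± 11.3 against 98.9 ± 21.4 TPM (SD, n = 3). The highest CAP-treated library lay below the lowest sham library. The log2 difference was -1.05 (SE 0.16, 95% interval -1.43 to -0.68), or 2.07-fold lower, with a limma unadjusted p of 0.000299 and an adjusted p of 0.205. Fos was the 1 member past the threshold, which 3.80% of the 18323 genes tested passed in either direction and 2.34% as lower values, against 1.46% as higher ones. In all, 8 members had a lower and 2 a higher mean log2 level with CAP, with a median difference of -0.29 beside -0.12 over all genes, of which 65.7% were lower. No gene of the whole table reached an adjusted p under 0.05 here by limma, while 3517 (19.2%) had an unadjusted p under 0.05.

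Ier3 and Egr1 were also lower in every CAP-treated library than in any sham library, by less than 2-fold. Ier3 was at 122, 187 and 144 TPM in sham wounds and at 75.9, 64.6 and 93.6 TPM in CAP-treated wounds, a log2 difference of -0.95 (SE 0.20, limma unadjusted p = 0.00194, adjusted p = 0.205). Egr1 was at 126, 101 and 108 TPM in sham wounds and at 92.1, 56.9 and 69.8 TPM in CAP-treated wounds, a difference of -0.64 (SE 0.19, limma unadjusted p = 0.0113, adjusted p = 0.212). Groups that do not overlap, with CAP-treated wounds lower, were found for 3 of the 10 members and for 18.0% of all genes tested. An unadjusted p under 0.05 was reached by 4 members, all lower, and by 12.5% of all genes as lower values. The fourth was Junb, at 429, 456 and 331 TPM in sham and 348, 261 and 308 TPM in CAP-treated wounds (log2 difference -0.40, SE 0.17, limma unadjusted p = 0.0461, adjusted p = 0.253), where the groups overlapped. With median-ratio scaling Junb differed by -0.29 (limma unadjusted p = 0.104). For a single gene, the exact permutation test cannot go below 0.1 with 3 libraries against 3, and Fos, Ier3 and Egr1 each gave 0.1.

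The remaining 6 members did not reach an unadjusted p under 0.05, and 4 of them had a lower mean log2 level with CAP. Fosb was at 46.6, 42.9 and 21.2 TPM in sham wounds at day 6 and at 39.1, 39.3 and 39.3 TPM in CAP-treated wounds, a log2 difference of 0.17 with a 95% interval from -0.50 to 0.84. Fosl1, a late-induced Fos relative of the migrating epidermis, was at 46.4, 63.1 and 22.0 TPM and at 17.2, 35.2 and 36.2 TPM, a difference of -0.51 with an interval from -1.55 to 0.52. Jun differed by -0.18 (-0.50 to 0.14), Fosl2 by -0.09 (-0.45 to 0.27), Atf3 by -0.17 (-0.81 to 0.47) and Jund by 0.28 (-0.15 to 0.71). Jund had the largest positive difference of the 10 members, at 321, 478 and 373 TPM against 349.6, 341 and 267 TPM, and its groups overlapped.

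**Figure D3:**
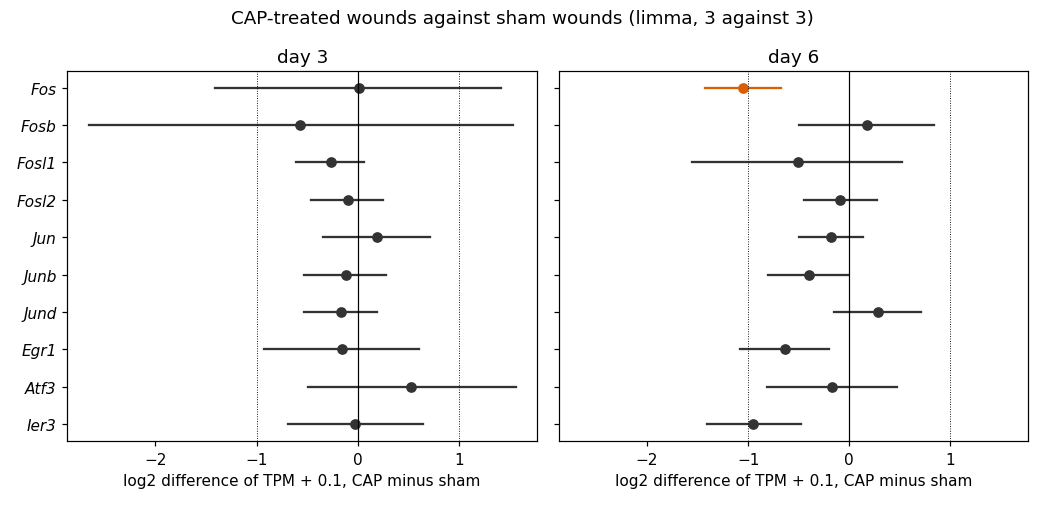
log2 difference of TPM + 0.1, CAP-treated minus sham (x axes), with its 95% interval for each member (y axis) at day 3 and day 6; dotted lines mark 2-fold, and orange marks a member past the threshold. Fos at day 6 (-1.05) is the 1 orange member, and every interval at day 3 includes 0.

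The day 6 values rest on the scaling and on single libraries in part. The median of all genes was itself -0.12 in this comparison; with median-ratio scaling of the libraries it was -0.01, Fos differed by -0.94 (limma unadjusted p = 0.000253), under the 2-fold limit, and the genes past the threshold went from 268 higher and 429 lower to 389 higher and 300 lower. In a joint fit of the 12 libraries, Fos had a limma unadjusted p = 0.0533 and did not pass. Without CAP-treated replicate 2, Fos differed by -0.93 (limma unadjusted p = 0.000693), 0 members passed and 311 genes of the table did; without CAP-treated replicate 3, Fos (-1.22) and Ier3 (-1.09) passed with 1483 genes; without sham replicate 1, Fos (-1.03) and Ier3 (-1.09) passed.

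Markers of other cells moved in the same 6 libraries. Neutrophil markers had a median log2 difference of -1.27 (8 of 8 lower, 1 past the threshold) and summed to 1993 to 3720 TPM in sham and 334 to 2785 TPM in CAP-treated wounds. Endothelial markers had a median of -1.05 (6 of 6 lower, 3 past the threshold; 242 to 329 TPM against 73.0 to 201 TPM), macrophage and monocyte markers -0.55 (8 of 8 lower, 1 past the threshold; 7134 to 10130 TPM against 4152 to 9363 TPM) and keratinocyte markers 0.42 (8 of 10 higher, 3 past the threshold; 31490 to 38600 TPM against 47710 to 98150 TPM). The medians of the other lists were -0.32 for fibroblast, -0.36 for skeletal muscle (1 of 6 past the threshold as lower), -1.12 for erythroid, 0.24 for T and NK cell and 0.90 for adipocyte markers (1 of 5 past it as higher). Of all genes, 65.7% were lower, 2.34% passed as lower and 1.46% as higher. No listed marker was at 0 throughout a group. The part of these markers in the lower Fos, Ier3 and Egr1 was not tested.

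Within the Fos family, Fos made up 53.4%, 49.2% and 59.9% of the summed TPM in the sham libraries at day 6 and 36.6%, 35.2% and 43.0% in the CAP-treated ones. Fosb made up 11.98%, 10.06% and 6.72% against 15.7%, 16.8% and 13.7%, and Fosl2 22.74% to 26.39% against 30.63% to 40.78%. None of these pairs of ranges overlapped. A share of a sum rises when another member of the sum falls. The levels of Fosb and Fosl2 themselves overlapped between the groups, with log2 differences of 0.17 and -0.09. The summed TPM of Jun, Junb and Jund exceeded that of the 4 Fos genes 2.24-fold to 2.40-fold in sham wounds at day 6 and 2.96-fold to 3.73-fold in CAP-treated wounds. At day 3 this ratio ranged from 2.52 to 4.95 in sham and from 2.92 to 4.97 in CAP-treated wounds, so that the 3 sham libraries at day 6 were the lowest of the 12. These ratios follow from the members' own levels and carry no test.

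Between the days, in wounds with gel alone, 9 of the 10 members had a higher mean log2 level at day 6, with a median difference of 0.47 beside 0.00 over all genes tested, but 0 passed the threshold, which 3.75% of the 18368 genes tested did (2.13% higher, 1.61% lower), and 0 had an adjusted p under 0.05, which 2.29% of all genes had. Fos differed by 0.95 (SE 0.39, limma unadjusted p = 0.0453, adjusted p = 0.30), Ier3 by 0.72 (SE 0.25, limma unadjusted p = 0.0237, adjusted p = 0.221) and Atf3 by 0.52 (SE 0.20, limma unadjusted p = 0.0327, adjusted p = 0.254), and 8.05% of all genes had an unadjusted p under 0.05 as higher values. Atf3 was the 1 member whose day 6 libraries (22.4, 26.4 and 23.8 TPM) all exceeded its day 3 libraries (19.6, 12.1 and 19.9 TPM), as in 10.8% of all genes. Jund lay the other way, at 403, 353 and 355 TPM on day 3 and at 349.6, 341 and 267 TPM on day 6, with no overlap (10.6% of all genes) and a difference of -0.22 (limma unadjusted p = 0.121). Endothelial markers (median 1.37, 4 of 6 past the threshold as higher) and erythroid markers (median 2.38, 5 of 5 higher) moved between the same libraries. So did neutrophil (0.28, 2 of 8 higher), fibroblast (0.30, 1 of 8 higher), keratinocyte (-0.39, 1 of 10 lower) and skeletal muscle markers (-0.76, 1 of 6 lower). The part of these markers in the members' values was not tested. Fosl1 at day 6 spanned 22.0 to 63.1 TPM, from below to above its day 3 range of 24.8 to 28.4 TPM.

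Sham replicate 1 at day 3, with its high Fos, bore on this comparison. With any other 1 of the 6 libraries left out, the unadjusted p of Fos was over 0.05. Without it, Fos differed by 1.47 (limma unadjusted p = 3.46e-06) and Fosb by 1.45 (limma unadjusted p = 0.00737), and both passed the threshold; without sham replicate 3 of day 3, Fosb differed by -0.08, and without sham replicate 3 of day 6, Fosl1 passed with 1.01 (limma unadjusted p = 0.000548).

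In CAP-treated wounds, Fosb rose from day 3 to day 6 and was the 1 member past the threshold, which 2.79% of the 18202 genes tested passed (1.27% higher, 1.52% lower). It and Fosl2 had an unadjusted p under 0.05 with a higher level, as did 5.66% of all genes. It went from 7.32, 14.6 and 38.3 TPM to 39.1, 39.3 and 39.3 TPM, a log2 difference of 1.28 (SE 0.54, limma unadjusted p = 0.0499, adjusted p = 0.432), with no overlap, though the highest library of day 3 lay just below the lowest of day 6. This call was at the edge of the threshold. It was lost when any 1 library other than CAP-treated replicate 3 of day 3 was left out, with the lowest limma unadjusted p = 0.0922, and without that library the difference was 1.91 (limma unadjusted p = 0.000594). Fosl2 was also without overlap, at 72.4, 65.5 and 68.3 TPM on day 3 and 102, 76.7 and 87.7 TPM on day 6 (log2 difference 0.36, SE 0.13, limma unadjusted p = 0.0251, adjusted p = 0.370), as were 8.05% of all genes with higher values. Fos differed by -0.11 (SE 0.47), with a 95% interval from -1.22 to 1.01, and the members' median was -0.09 beside -0.05 over all genes. Neutrophil markers had a median of -1.61 here (4 of 8 past the threshold as lower), T and NK cell markers 0.96 (2 of 6 higher), keratinocyte markers 0.02 (3 of 10 higher, 2 lower), skeletal muscle markers -0.51 (1 of 6 lower) and macrophage and monocyte markers -0.26 (1 of 8 lower), and their part was not tested.

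**Figure D4:**
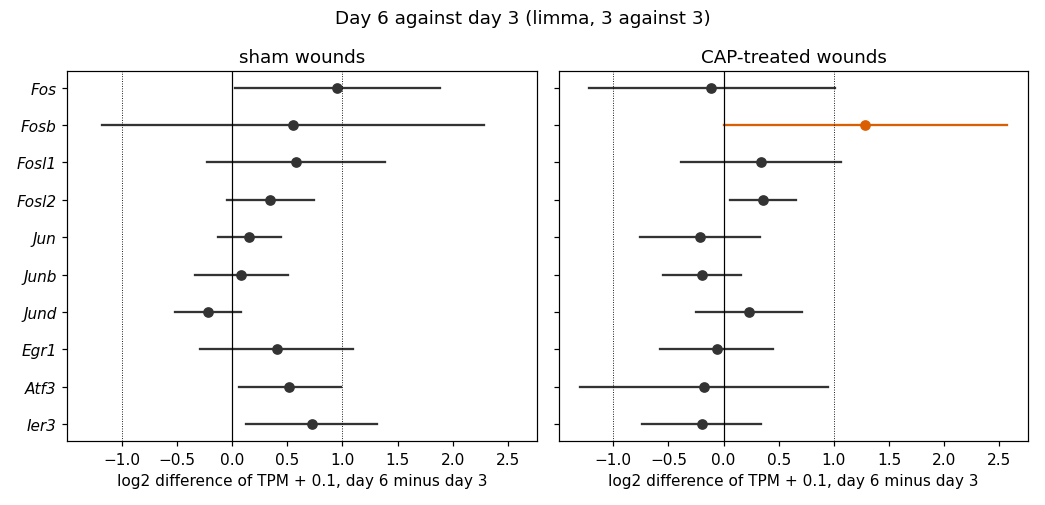
log2 difference of TPM + 0.1, day 6 minus day 3 (x axes), with its 95% interval for each member (y axis) in sham and in CAP-treated wounds; dotted lines mark 2-fold, and orange marks a member past the threshold. Fosb in CAP-treated wounds (1.28) is the 1 orange member, with an interval from 0.00 to 2.57.

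Whether the CAP effect itself differed between the days was tested with all 12 libraries. Ier3 was the 1 member with an unadjusted p under 0.05: its CAP effect was -0.03 at day 3 and -0.95 at day 6, a difference of -0.92 (SE 0.37, limma unadjusted p = 0.0312, adjusted p = 0.428), and 5.88% of all genes had such a p with a lower value. For Fos the difference was -1.06 (SE 0.68, 95% interval -2.56 to 0.44, limma unadjusted p = 0.149), so the CAP effect on Fos was not shown to differ between the days. Markers moved in this comparison too: the median was -3.22 for erythroid (5 of 5 past the threshold as lower), -1.25 for neutrophil (3 of 8 lower), -0.84 for macrophage and monocyte (2 of 8 lower), 0.45 for keratinocyte (3 of 10 higher) and 0.49 for T and NK cell markers (2 of 6 higher), and their part was not tested. None of the 10 members passed the threshold, against 4.90% of the 20267 genes tested (2.18% higher, 2.73% lower). With sham replicate 1 of day 3 left out, Fos (-1.58, limma unadjusted p = 0.0213) and Ier3 (-1.19, limma unadjusted p = 0.00435) passed, and without CAP-treated replicate 1 of day 3, Fos (-1.58, limma unadjusted p = 0.0220), Ier3 (-1.14, limma unadjusted p = 0.00959) and Atf3 (-1.11, limma unadjusted p = 0.0458) passed. Ier3 alone passed without sham replicate 1 of day 6 (-1.06, limma unadjusted p = 0.0227) or without CAP-treated replicate 3 of day 6 (-1.06, limma unadjusted p = 0.0214).

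The wider pathway was described through lists that hold none of the 10 members. These lists were chosen with earlier results of these data known. Their counts beside the shares of all genes are therefore a description and not a test of enrichment. Genes that AP-1 is known to control in wounds, 20 in number, had 9 lower and 2 higher members past the threshold with CAP at day 6, beside 2.34% lower and 1.46% higher of all genes, and a median log2 difference of -0.99 beside -0.12. Mmp9, a gelatinase of keratinocytes and leukocytes, fell by 1.19 on the log2 scale (237, 224 and 147 TPM in sham; 84.5, 75.9 and 102 TPM in CAP-treated wounds; limma unadjusted p = 0.000685, adjusted p = 0.205). Ccl2, the monocyte chemoattractant, fell by 1.52 (47.3, 47.7 and 29.7 TPM against 21.3, 11.8 and 11.2 TPM; limma unadjusted p = 0.00135, adjusted p = 0.205). In both, every CAP-treated library lay below every sham library, as in 18.0% of all genes. Vegfa, the endothelial growth factor, fell by 1.26 (229, 243 and 164 TPM against 80.5, 57.0 and 146 TPM; limma unadjusted p = 0.00733, adjusted p = 0.209). The 2 genes that rose are products of the terminally differentiating epidermis: Lor, which encodes loricrin, by 1.44 (1341, 1927 and 1844 TPM against 4215, 7095 and 3180.5 TPM; limma unadjusted p = 0.00277, adjusted p = 0.205), and Ivl, which encodes involucrin, by 1.03 (152, 247 and 189 TPM against 402, 533 and 282 TPM; limma unadjusted p = 0.00630, adjusted p = 0.208). The list counts were 7 lower and 1 higher without CAP-treated replicate 2, 13 lower and 2 higher without CAP-treated replicate 3, and 7 lower and 2 higher with median-ratio scaling. Without CAP-treated replicate 2, Vegfa differed by -0.95 and Ivl by 0.81, and neither passed. Ivl also missed the threshold without sham replicate 1 (0.86). Neutrophil, macrophage and keratinocyte markers moved in the same libraries, as given above, and their part in the values of this list was not tested.

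**Figure D5:**
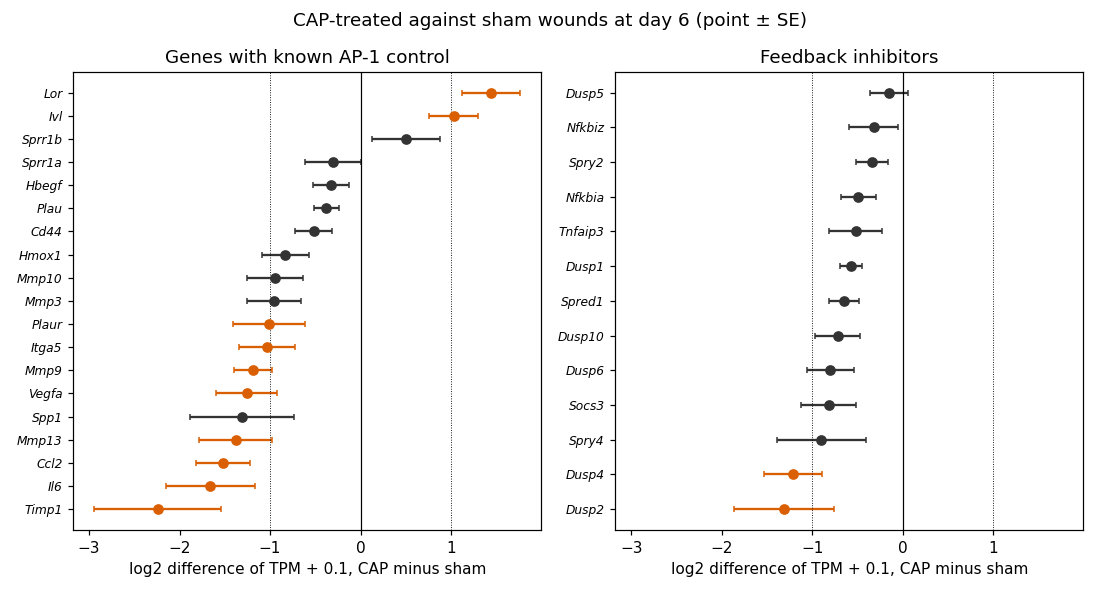
log2 difference of TPM + 0.1, CAP-treated minus sham at day 6 (x axes), with its SE, for genes with known AP-1 control (left; 1 of the 20 is not drawn) and 13 feedback inhibitors (right); dotted lines mark 2-fold, and orange marks genes past the threshold. The 13 feedback inhibitors all lie below 0, and Lor (1.44) and Ivl (1.03) are the 2 orange genes above 0.

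Feedback inhibitors of MAP kinase and NF-kB signals are induced by the same signals as the members and shut them off. All 13 had a lower mean log2 level with CAP at day 6 (median -0.65, beside -0.12 over all genes, of which 65.7% were lower), and 2 passed the threshold as lower, beside 2.34% of all genes. Dusp4, a nuclear MAP kinase phosphatase, was at 4.94, 3.999 and 3.38 TPM in sham and 1.49, 1.21 and 2.66 TPM in CAP-treated wounds and fell by 1.21 (limma unadjusted p = 0.00707, adjusted p = 0.208). Dusp2, a phosphatase of activated leukocytes, was at 2.1, 3.27 and 2.55 TPM against 1.54, 0.346 and 1.66 TPM and fell by 1.31 (limma unadjusted p = 0.0479, adjusted p = 0.256). Both lost the call with a pseudocount of 1 TPM (-0.89 and -0.79) and without CAP-treated replicate 2 (-0.99 and -0.67), and Dusp2 also without any 1 of the 3 sham libraries (-1.46, -1.15 and -1.32) and with no filter, median-ratio scaling or quantile normalization. Without CAP-treated replicate 3, 4 of the 13 passed.

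Of 27 other immediate early genes tested at day 6, 2 fell and 0 rose, beside 2.34% lower and 1.46% higher of all genes, and the median of -0.13 was near that of all genes (-0.12). With median-ratio scaling 1 was lower and 1 higher. Ccn1, a matricellular gene, was at 194, 190.2 and 239 TPM in sham and 99.8, 43.7 and 112 TPM in CAP-treated wounds and fell by 1.39 (limma unadjusted p = 0.00475, adjusted p = 0.206). Gadd45g, a growth arrest gene, was at 56.9, 46.2 and 62.1 TPM against 31.3, 15.3 and 34.8 TPM and fell by 1.09 (limma unadjusted p = 0.00945, adjusted p = 0.209). Without CAP-treated replicate 2 neither passed (-0.97 and -0.73), and Gadd45g did not pass with median-ratio scaling or quantile normalization (-0.98 in each). None of 12 other AP-1 family and bZIP partner genes (median -0.24), of 17 upstream serum response and MAP kinase genes (median -0.07) or of 8 heat shock genes (median 0.20) passed at day 6. At day 3, 0 genes of these 6 lists passed with CAP, and their medians lay between -0.16 and 0.17. Leaving out CAP-treated replicate 3 of day 3 brought 1 other immediate early gene past it, and leaving out CAP-treated replicate 1 or sham replicate 3 brought 1 AP-1-controlled gene past it.

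From day 3 to day 6 in sham wounds, 5 AP-1-controlled genes rose and 1 fell of 20, beside 2.13% higher and 1.61% lower of all genes. Without sham replicate 1 of day 3, 9 rose and 1 fell. Mmp10, a stromelysin of the migrating epidermis, rose by 1.71 (6.71, 6.38 and 4.58 TPM to 21.9, 20.05 and 16.1 TPM; limma unadjusted p = 3.25e-05, adjusted p = 0.0146), Mmp3 by 1.35 (adjusted p = 0.0222), Mmp9 by 1.29 (adjusted p = 0.0435) and Mmp13 by 1.68 (adjusted p = 0.0505). Sprr1b, a cornified envelope precursor, fell by 1.04 (limma unadjusted p = 0.0126, adjusted p = 0.164). Of the feedback inhibitors, 3 of 13 rose in sham wounds, beside 2.13% of all genes, and 1 with a pseudocount of 1 TPM. These were Spry4 by 1.51 (limma adjusted p = 0.0521), Dusp4 by 1.09 (limma adjusted p = 0.0867) and Dusp2 by 1.01 (limma adjusted p = 0.0964). Ccn1 rose by 1.06 (limma unadjusted p = 0.0112, adjusted p = 0.154), and Batf3, a partner of Jun proteins in dendritic cells, fell by 1.0 (7.51, 5.85 and 6.33 TPM to 3.87, 3.00 and 2.84 TPM; adjusted p = 0.0417). In CAP-treated wounds, 2 of the 20 AP-1-controlled genes rose and 3 fell, beside 1.27% higher and 1.52% lower of all genes. Lor rose by 1.5 and Ivl by 1.14 (limma adjusted p = 0.295 each). Ccl2 fell by 2.37 (61.6, 72.7 and 88.4 TPM to 21.3, 11.8 and 11.2 TPM, limma adjusted p = 0.119), Sprr1a by 1.09 (limma adjusted p = 0.295) and Spp1 by 1.79 (limma adjusted p = 0.408). Nr4a1, an orphan nuclear receptor of the immediate early class, rose by 1.11 there (15.1, 11.98 and 24.1 TPM to 32.2, 31.6 and 43.5 TPM; limma unadjusted p = 0.00494, adjusted p = 0.295). The 2 comparisons of CAP with sham and the 2 comparisons of the days share groups, so their values are not independent of each other. Several calls between the days were lost when 1 library was left out. In sham wounds these were Ccn1 without replicate 2 (0.82) or 3 (0.90) of day 3 or replicate 3 of day 6 (0.95), Dusp4 without replicate 3 of day 3 (0.91) or 1 of day 6 (0.95), and Dusp2 without replicate 1 (0.92) or 2 (0.97) of day 3 or 2 of day 6 (0.85). Batf3 lost its call without replicate 1 of day 3 (-0.90) or 2 (-0.96) or 3 (-0.92) of day 6, and Sprr1b without replicate 2 of day 3 (-0.92) or 1 (-0.78) or 3 (-0.92) of day 6. In CAP-treated wounds these were Nr4a1 (0.89) and Sprr1a (-0.88) without replicate 2 of day 3, both also without replicate 3 of day 6 (0.96 and -0.97), and Ivl without replicate 3 of day 3 (0.97) or 2 of day 6 (0.92). Spp1 lost it without replicate 1 (-2.02) or 3 (-1.26) of day 3 or 1 (-1.62) or 2 (-1.27) of day 6. Without replicate 2 of day 6, 1 AP-1-controlled gene was higher and 2 were lower in CAP-treated wounds.

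Across the 12 libraries, some members moved together and others did not. Around their group means, Fos and Fosb had a Pearson r of 0.921, Jun and Atf3 0.915 and Fos and Jun 0.882. Every pair among Fos, Fosb, Jun, Junb, Egr1, Atf3 and Ier3 had at least 0.384, the value of Jun and Junb. Lower values were found in pairs with Jund, Fosl1 or Fosl2. Jund had 0.028 with Ier3 and 0.080 with Junb, and Fosl1 had -0.142 with Egr1, the lowest of all pairs. All of these points share their library and its composition, and the values describe 12 libraries. Among the 16169 genes whose mean reached 1 TPM, the log2 level of Fos was most like that of Zfp36, an immediate early gene whose protein destabilises cytokine transcripts (r 0.912), then Txndc12 and Gm45774 (0.901 each). Fosb was most like Pisd-ps1 (0.877), 1810013L24Rik (0.871) and Nr4a1 (0.849). Jun was most like Ninj1 (0.925), Gm15590 (0.923) and Fam219a (0.919), and Junb most like Osmr (0.940), Dgat1 (0.938) and Sbno2 (0.929). For Ier3 these were Smad7 (0.936), Ppp1r3d (0.926) and Rnf149 (0.907), for Egr1 Gm13410 (0.914), Dram1 and Il1r1 (0.909 each), and for Atf3 Anpep, Slc36a1 and Mcl1 (0.919 each). Fosl1 lay closest to Hax1 (0.938), 9330160F10Rik (0.870) and Men1 (0.865), Fosl2 to Gm7993 (0.939), Egln1 (0.890) and Susd6 (0.889), and Jund to Rpl27a-ps4 (0.905), Rfx2 (0.877) and Srgap1 (0.844).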

How the data were processed

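RNA of wound tissue was sequenced by the authors, with 3 libraries in each of 4 groups. Per the submitters' processing notes, reads were converted with bcl2fastq, trimmed with Trimmomatic 0.36 and placed on mm10. The authors then estimated expression with StringTie and deposited TPM, 1 table per library with the same 55487 genes, in which 0.0001 stands in place of 0. TPM removes gene length and read depth, so that a gene's value also moves when other genes take up more of the library, and counting error cannot be given. At 0.3 TPM or more, 18533 to 19325 genes were present per library.

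Libraries were grouped by treatment and day, as labelled. The log2 of TPM + 0.1 was fitted with limma 3.58.1 (R 4.3.3) with an intensity trend, keeping genes whose group means both reached 0.3 TPM (in at least 1 of the 4 groups for the difference of the CAP effects), which all 10 members passed. Each comparison used its own 6 libraries, with p values adjusted over all genes tested. Non-overlap and the exact permutation test over the 20 divisions (2-sided) were also computed in R. Pearson correlations used Python 3.11.15 with numpy 2.4.6 and pandas 2.3.3. Alternatives were a pseudocount of 1 TPM, no filter, a joint fit of 12 libraries, a replicate block, median-ratio scaling, quantile normalization and leaving out each library. Applying them to counts over lists was chosen after seeing the data.

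The members and lists were chosen with earlier results of these data known. The genes named are the 10 members, up to 4 genes past the threshold per list, comparison and direction, taken in order of their unadjusted p, and the 3 genes most like each member. The values of 1 gene that this rule selects are not reported here, although counts over its list include it. Exceptions are the 4 overlapping genes, named for their position. Gene positions are those of the files, which equalled GENCODE M21 for 9 of the 10 members (not Junb). The fit was tested on simulated data.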

Additional observations from a re-analysis of the deposited data

Results flagged for a closer look

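For the following genes the CAP effect at day 6 differed from that at day 3 by an unadjusted limma p under 0.05, with an adjusted p of 0.428 for each, over all 12 libraries. Ier3 differed by -0.92 on the log2 scale (limma unadjusted p = 0.0312). Of genes with known AP-1 control, Mmp9 differed by -1.42 (limma unadjusted p = 0.000750), Ccl2 by -1.64 (limma unadjusted p = 0.000908), Mmp3 by -1.28 (limma unadjusted p = 0.00604), Mmp13 by -1.95 (limma unadjusted p = 0.00791) and Lor by 1.29 (limma unadjusted p = 0.0187). Of the other AP-1 family genes, Batf, a partner of Jun proteins in lymphocytes, differed by -1.13 (limma unadjusted p = 0.0215). All 6 genes other than Ier3 also passed the 2-fold threshold, which 4.90% of all genes tested did. In all, 10 of the 20 AP-1-controlled genes passed it as lower and 1 as higher. With CAP-treated replicate 2 of day 6 left out, Lor differed by 0.97, Mmp3 by -0.96 and Batf by -0.81 and passed no more, and the list held 5 lower and 0 higher genes; without sham replicate 2 of day 3 it held 6 lower and 1 higher. Batf also missed the threshold without replicate 2 of sham (-0.92) or replicate 2 (-1.02) or 3 (-0.98) of CAP-treated wounds at day 3.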

How the results depend on the processing

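TPM carries no depth, so the limits here are 3 libraries a group and 2-fold calls near their threshold. The count of members past the threshold was unchanged for CAP at day 3 (0) under every alternative. With CAP at day 6 the 1 member, Fos, gave 0 in the joint fit (limma unadjusted p = 0.0533) and with median-ratio scaling, and in CAP-treated wounds between the days the 1 member, Fosb, gave 0 with no filter, in the joint fit and with median-ratio scaling. The cause was not tested. Signs turned for Ier3 at day 3 (0.04 under median-ratio scaling, 0.00 after quantile normalization) and for Fosl2 at day 6 (0.03 with median-ratio scaling). With a pseudocount of 1 TPM, the genes past the threshold were 154 (CAP at day 3), 385 (CAP at day 6), 405 (sham, days), 299 (CAP, days) and 580 (difference of effects), against 290, 697, 688, 507 and 994; with no filter, which tests more genes, they were 568 (CAP at day 3), 1156 (sham, days) and 842 (CAP, days). Quantile normalization turned the day 6 split of 268 higher and 429 lower into 402 and 255.

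Leaving out 1 library gave 0 to 2 members for CAP at day 6, 0 to 2 between the days in sham wounds, 0 to 1 in CAP-treated wounds and 0 to 3 for the difference of effects, and 204 to 510, 311 to 1483, 641 to 873, 382 to 886 and 657 to 1777 genes in the 5 comparisons. The 1483 and 1777 were without CAP-treated replicate 3 of day 6, where 1430 genes had an adjusted p under 0.05 in the first, the 311 and 657 without its replicate 2, and the 510 without CAP-treated replicate 1 of day 3. Differences whose sign turned ranged at day 3 from -0.46 to 0.53 (Fos), -1.19 to 0.33 (Fosb), -0.20 to 0.06 (Fosl2), -0.02 to 0.40 (Jun), -0.22 to 0.05 (Junb), -0.36 to 0.21 (Egr1) and -0.19 to 0.24 (Ier3); at day 6 from -0.19 to 0.38 (Fosb), -0.19 to 0.04 (Fosl2) and -0.47 to 0.10 (Atf3); between days in sham wounds from -0.08 to 1.45 (Fosb) and -0.02 to 0.25 (Junb) and in CAP-treated wounds from -0.62 to 0.37 (Fos), -0.25 to 0.10 (Egr1) and -0.59 to 0.28 (Atf3); and for the difference of effects from -0.16 to 1.36 (Fosb), -0.67 to 0.11 (Fosl1) and -0.15 to 0.14 (Fosl2). The replicate number as a block left the members past the threshold at 1 for CAP at day 6 and ended 1 call of a named gene, Dusp2 at day 6 (-1.31). Deviations of libraries with the same number correlated at -0.17 to 0.289, so the numbers were not taken to pair the samples, although every library correlated best with its own number between sham and CAP at day 6 and between the days in sham wounds.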
